A study of Mus musculus with 31 samples.

Results

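Tbx21, Gata3, Bcl6, Maf, Rora and Ahr encode transcription factors that mark or shape the T helper lineages, and all 6 were found by symbol among the 24594 genes counted. They are described in 31 RNA sequencing libraries of CD25+ CD4+ T cells, the gate used for regulatory T cells (Tregs), across 10 groups of tissue and genotype. Live CD45+ CD3+ CD4+ CD8- CD25+ cells were sorted by flow cytometry with no gate on FOXP3, so activated conventional T cells could enter the sort. The tumor-bearing mice, called KEP here, were K14cre;Cdh1F/F;Trp53F/F on the FVB/N background: Cre driven by the keratin 14 promoter, active in epithelium, deletes floxed E-cadherin (Cdh1) and p53 (Trp53), and these mice carried spontaneous mammary tumors of 225 mm2. Their littermates, called WT here, were wt;Cdh1F/F;Trp53F/F, so both genotypes carried the floxed alleles and the Cre transgene separated them. KEP mice gave 3 libraries each of blood, spleen, lung, tumor-draining lymph node (called lymph node below) and tumor, each from 1 mouse. WT mice gave 3 libraries each of blood, spleen, lung and lymph node and 4 of healthy mammary gland, each from a pool of 3 mice. No ages are given in the sources used here.

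Naive CD4+ T cells take on helper lineages under the control of such factors. T-bet (Tbx21) sets the Th1 lineage and its interferon gamma program, GATA3 the Th2 lineage, and BCL6 the follicular helper (Tfh) lineage, whereas c-MAF, RORα and the aryl hydrocarbon receptor (AHR) act in Th17, Tfh and mucosal T cells. Mouse Tregs also use these factors: T-bet marks Tregs that control Th1 responses, GATA3 and RORα are known in Tregs of barrier tissues and lung, BCL6 in follicular Tregs, c-MAF in IL-10-producing and gut Tregs, and AHR, a receptor for diet- and microbe-derived ligands, in gut Tregs.

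The genes lie on different chromosomes of the GRCm38 build: Tbx21 (ENSMUSG00000001444) at chr11:97098071-97115331, Gata3 (ENSMUSG00000015619) at chr2:9857078-9890034, Bcl6 (ENSMUSG00000022508) at chr16:23965052-23988852, Maf (ENSMUSG00000055435) at chr8:115682942-115707794, Rora (ENSMUSG00000032238) at chr9:68653786-69388246 and Ahr (ENSMUSG00000019256) at chr12:35497974-35535038. Rora lies on the plus strand and the others on the minus strand. Tbx21 overlaps no other annotated gene. The other members share some exonic bases with a neighbour, and whether counting used the strand is not given in the sources used here, so their counts are uncertain by the reads of those neighbours. In any library 9230102O04Rik, which shares exonic bases with Gata3 on the same strand, had at most 28 counts, and the antisense genes Gm13256 (Gata3), Gm15655 (Maf) and Gm15511 (Rora) had at most 15, 13 and 6 counts, against at least 1184 for Gata3, 260 for Maf and 1051 for Rora. The overlapping genes Gm37419 (Bcl6) and Gm48236 (Ahr) were not analysed here.

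Promoters from RefSeq on GRCm38.p6 (250 bases before to 50 after the gene start) were found for 4 of the 6 members. Those of Tbx21 and Rora are shown because, of the 4, these had the largest differences from spleen described below, and the pair for Bcl6 because it carries repeated matches to a motif that BCL6 and STAT proteins bind. Capitals mark every match, on either strand, to 6 motifs. AHR binds the core GCGTG together with its partner ARNT. The letters searched for T-box proteins such as T-bet were TCACACC, and those for GATA proteins were AGATAA. The ROR core was searched as AGGTCA, and the core bound by MAF proteins as TGCTGA. STAT proteins and BCL6 were searched with the palindrome TTCNNNGAA. The Tbx21 promoter lies at chr11:97115282-97115581 (minus strand), that of Rora at chr9:68653536-68653835 (plus strand), and the Bcl6 entries at chr16:23988803-23989102 and chr16:23981234-23981533 (minus strand).
Tbx21: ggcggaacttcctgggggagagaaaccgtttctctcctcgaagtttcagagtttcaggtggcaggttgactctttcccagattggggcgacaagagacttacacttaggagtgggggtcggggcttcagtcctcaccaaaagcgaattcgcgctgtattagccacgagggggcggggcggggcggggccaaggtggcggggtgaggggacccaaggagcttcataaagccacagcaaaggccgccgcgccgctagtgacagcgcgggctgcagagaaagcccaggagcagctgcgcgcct
Rora: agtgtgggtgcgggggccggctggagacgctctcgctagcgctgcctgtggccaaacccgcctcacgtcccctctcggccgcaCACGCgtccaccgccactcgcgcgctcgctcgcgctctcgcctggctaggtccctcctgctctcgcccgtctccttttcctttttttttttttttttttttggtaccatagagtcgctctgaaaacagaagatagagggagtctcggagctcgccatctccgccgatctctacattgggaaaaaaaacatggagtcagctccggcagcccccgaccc
Bcl6 entry 1: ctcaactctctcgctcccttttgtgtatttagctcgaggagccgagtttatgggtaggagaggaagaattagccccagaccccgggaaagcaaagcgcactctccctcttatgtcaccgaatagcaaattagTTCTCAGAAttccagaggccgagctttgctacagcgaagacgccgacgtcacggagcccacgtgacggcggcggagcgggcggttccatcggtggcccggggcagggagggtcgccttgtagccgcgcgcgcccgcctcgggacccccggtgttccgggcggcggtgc
Bcl6 entry 2: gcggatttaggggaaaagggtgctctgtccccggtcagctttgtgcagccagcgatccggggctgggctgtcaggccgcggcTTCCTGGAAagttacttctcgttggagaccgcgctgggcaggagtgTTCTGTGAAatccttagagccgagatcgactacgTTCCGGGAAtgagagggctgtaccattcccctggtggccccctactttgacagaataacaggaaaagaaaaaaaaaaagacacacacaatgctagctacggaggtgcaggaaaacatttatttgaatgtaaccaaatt
The Tbx21 promoter held no match. The Rora promoter held 1 match to the AHR core, a motif found in 32.4% of the 32851 promoter entries of the mouse. The STAT or BCL6 motif, found in 8.3% of all entries, occurred 1 time in the first Bcl6 entry and 3 times in the second. Gata3 had 1 match to the MAF letters (19.5% of entries). These matches describe the sequence and do not show binding.

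Total counts ran from 8154765 to 15258958 per library. Levels below are CPM, counts scaled to library size with TMM factors. The CPM of counts summed over the 4 tissues were scaled to total counts alone. Levels are given per library in the order of the replicates, or as mean ± SD over n = 3 libraries (n = 4 for WT mammary gland). Log2 fold changes carry their standard error (SE) and a Benjamini-Hochberg adjusted p from edgeR's quasi-likelihood test over all genes tested, and a gene was called where that was under 0.05. Together, 10 pan-T genes (Cd3e among them) reached 81.3% to 103% of their WT spleen mean in the 24 libraries outside tumor and mammary gland. They reached 104%, 60.3% and 31.7% in the 3 tumor libraries, against 7.57%, 32.6%, 2.82% and 3.58% in the 4 WT mammary gland libraries, so the mammary gland libraries held little of the T cell RNA that their label names. Genes of Treg identity, 8 in number, summed to 2272 to 6932 CPM in the 4 tissues, 3634 to 10504 CPM in tumor and 435 to 2917 CPM in mammary gland, with none at 0 in a whole group. In such bulk samples fewer cells of a type and less RNA per cell cannot be told apart. Sample titles carry dates that several tissues of 1 genotype share but the genotypes do not, so the title date and the genotype cannot be told apart. The same holds for the pooling of 3 mice in WT and 1 mouse in KEP libraries. Sorted cells numbered 70000, 17000 and 70000 in KEP blood and 30000, 9000 and 20000 in WT blood. They numbered 30000 to 70000 in tumor and 4500 to 30000 in WT mammary gland. The part of cell number in the differences was not tested.

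Per kilobase of exon, the scale on which different genes can be compared, Gata3 had the highest level of the 6 genes in 8 of the 10 groups and Rora in both lung groups. In lung, Rora stood at 56.8 ± 6.61 CPM per kilobase in KEP libraries, beside 53.8 ± 12.4 for Gata3, and at 48.8 ± 2.36 in WT libraries, beside 41.6 ± 6.31 for Gata3. In WT spleen Tbx21 and Gata3 had levels of 44.7 ± 12.6 and 44.7 ± 1.88 CPM per kilobase. Bcl6 and Ahr were the lowest pair in KEP blood, KEP spleen and KEP tumor, WT blood and WT spleen, and in lung of both genotypes; Tbx21 was the lowest in KEP lymph node and WT mammary gland, and Ahr in WT lymph node.

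**Figure D1:**
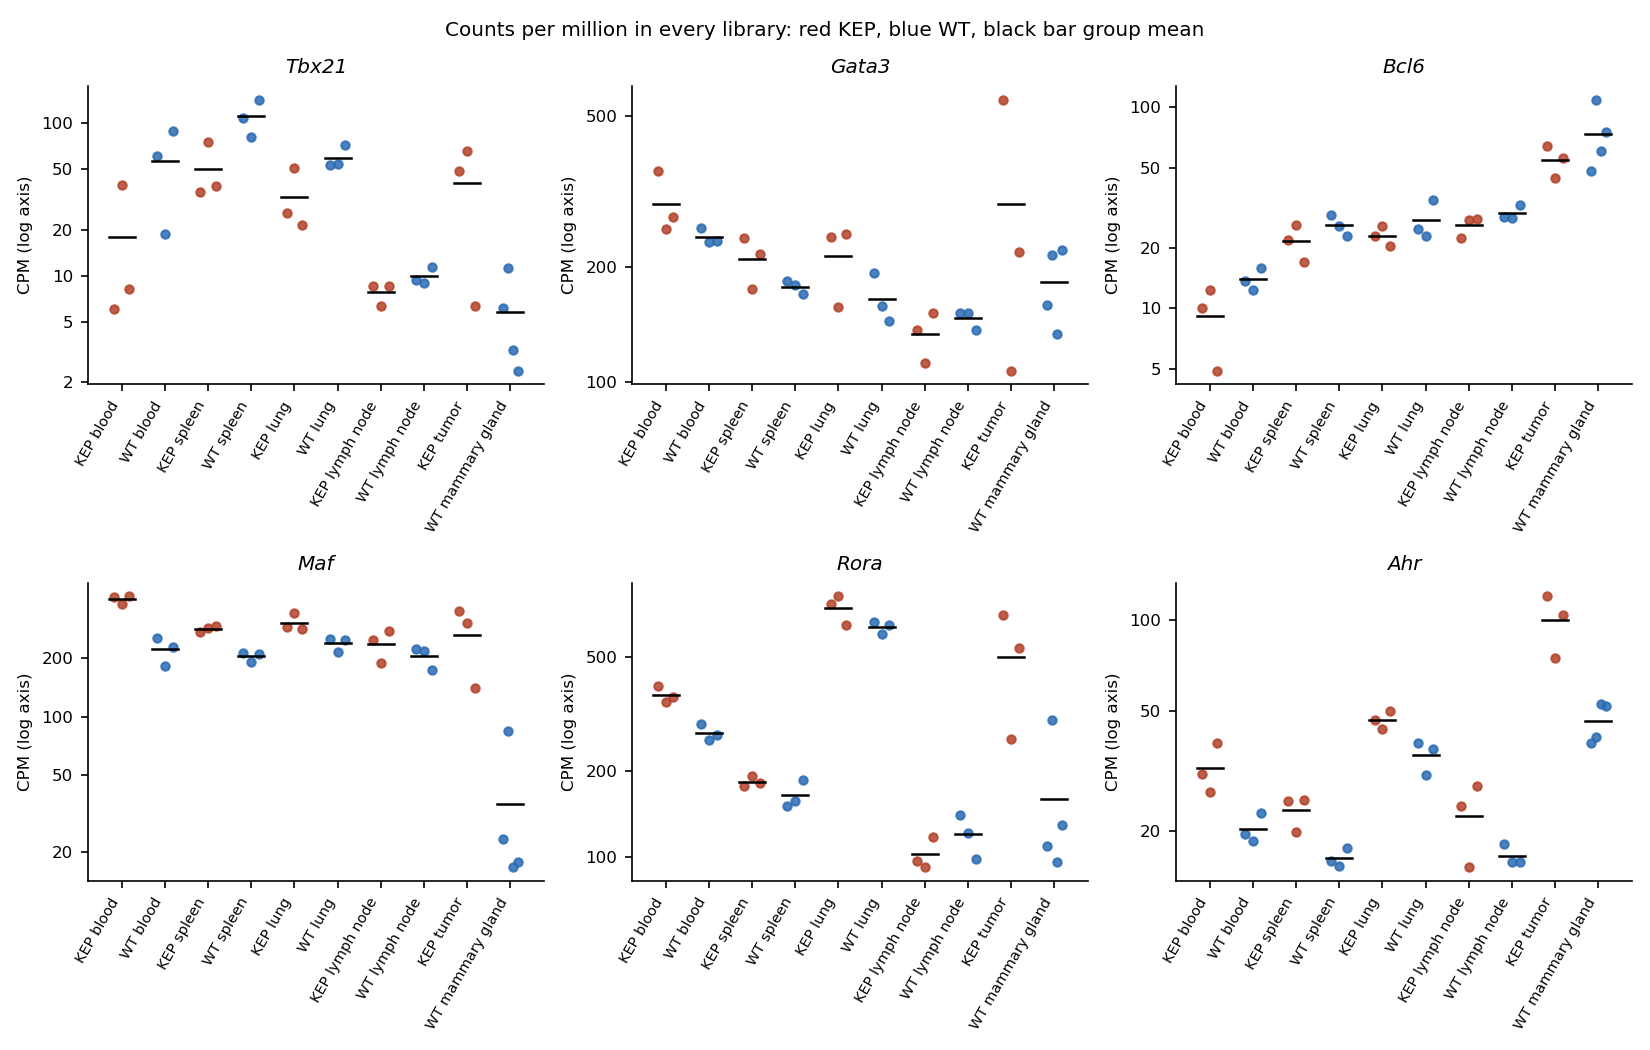
CPM of the 6 genes (log axes) in each of the 31 libraries, with KEP groups in red left of their WT counterparts in blue and black bars for group means. Rora was highest in lung, Tbx21 in WT spleen and lowest in lymph node and mammary gland, Ahr highest in tumor, and Maf lowest in WT mammary gland.

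Tbx21 encodes T-bet, the master factor of the Th1 lineage, and had the widest range of the 6, 60.4-fold between its highest and lowest library. In spleen it stood at 35.4, 75.9 and 39.0 CPM in KEP libraries and at 109, 80.9 and 143.5 CPM in WT libraries. In blood it stood at 6.06, 39.3 and 8.21 CPM in KEP libraries, against 61.3, 18.9 and 88.9 CPM in WT libraries. The groups did not overlap in spleen and did in blood, where KEP replicate 2 lay above WT replicate 2. In lung the values were 25.99, 51.1 and 21.4 CPM in KEP libraries and 53.2, 54.1 and 72.1 CPM in WT libraries. In lymph node they were 8.61, 6.36 and 8.58 CPM in KEP libraries and 9.37, 8.92 and 11.4 CPM in WT libraries. Neither pair overlapped, and both lymph node groups lay below every spleen library. Tumor libraries had 48.8, 66.4 and 6.32 CPM, against 6.12, 11.3, 3.26 and 2.38 CPM in WT mammary gland libraries. Of the 9 steps between neighbours in the order of group means only 2 separated all libraries: WT spleen above WT lung, and WT lymph node above KEP lymph node.

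KEP replicate 2 was the highest of its group for Tbx21 in blood, spleen, lung and tumor, and the lowest in lymph node. The sort had no stated gate against NKT cells. Transcripts of 8 NK and NKT cell genes, several of which T-bet-expressing T cells also use, were summed. As a sum they had lower means in KEP than in WT groups and, like Tbx21, were lowest in lymph node of the 4 tissues. Their summed CPM was 55.3 to 229 in KEP blood and 124.6 to 434 in WT blood, 143.7 to 306 in KEP spleen and 317.5 to 512 in WT spleen, 84.8 to 163.6 in KEP lung and 209 to 236 in WT lung, and in lymph node 44.7 to 52.5 for KEP and 67.9 to 85.1 for WT libraries. KEP replicate 2 had the highest sum in blood, spleen and lung (229, 306 and 163.6 CPM), and also in lymph node (52.5 CPM), where it was the lowest for Tbx21. In WT lymph node the order of the sums (85.1, 73.9 and 67.9 CPM) was not that of Tbx21. None of the 8 genes was at 0 in every library of a group. Ncr1, which defines NK cells, averaged at most 0.387 CPM in any of these groups. Klrb1c (NK1.1) averaged 43.1 CPM in KEP spleen and 87.0 CPM in WT spleen, and Zbtb16 (PLZF, the NKT cell factor) 30.8 CPM in KEP spleen and 69.5 CPM in WT spleen. Not all of the 8 genes followed the sum. Prf1 averaged 21.4 CPM in KEP and 16.2 CPM in WT lymph node. In lung, where Prf1 was lowest, it averaged 9.67 CPM in KEP and 7.45 CPM in WT libraries. Nkg7 averaged 13.15 CPM in KEP and 13.17 CPM in WT lymph node. The part of NK and NKT cells in the Tbx21 values was not tested.

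**Figure D2:**
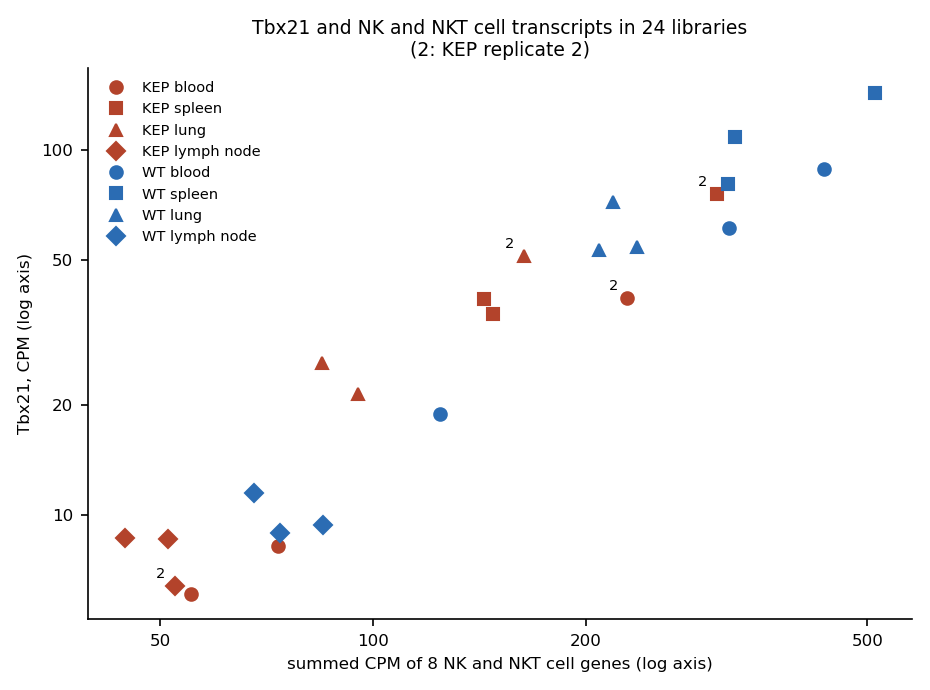
Tbx21 CPM against the summed CPM of 8 NK and NKT cell genes in the 24 libraries other than tumor and mammary gland (log axes, KEP red, WT blue, shapes for tissues, 2 for KEP replicate 2). The lymph node libraries lie at the low end (at most 11.4 CPM Tbx21), beside KEP blood replicates 1 and 3 (6.06 and 8.21 CPM). WT spleen lies at the high end (80.9 to 143.5 CPM), beside WT blood replicate 3 (88.9 CPM).

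Gata3, the factor of the Th2 lineage that is also expressed in Tregs at barriers, had the smallest range of the 6, 5.18-fold between its highest and lowest library, and none of the 9 neighbours in its order of group means was separated from the next. Its values were 358.8, 252 and 271.8 CPM in KEP blood, against 254, 233 and 234 CPM in WT blood. In spleen they were 239, 175 and 217 CPM in KEP libraries and 184, 179.7 and 169.6 CPM in WT libraries. Lung gave 239.7, 157 and 244.7 CPM in KEP and 193, 158.5 and 144.5 CPM in WT libraries. KEP replicate 2 was the lowest of its group in blood, spleen, lung, lymph node and tumor, the reverse of its place for Tbx21 in blood, spleen, lung and tumor. Lymph node held the lowest group means, at 133 ± 19.9 CPM in KEP and 146.7 ± 8.41 CPM in WT. The tumor libraries spread over 553, 106.7 and 219.8 CPM and enclosed the WT mammary gland libraries at 159, 215.7, 133 and 222.5 CPM. Gata3 is also a factor of luminal mammary epithelium, and luminal epithelial genes such as Krt8 and Krt18 summed to 173 to 2023 CPM in tumor, against 4821 to 6468 CPM in WT mammary gland.

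Bcl6, the repressor that defines the Tfh lineage, was low throughout and lowest in blood. It stood at 10.1, 12.4 and 4.88 CPM in KEP blood and at 13.6, 12.3 and 15.9 CPM in WT blood. Spleen gave 21.8, 25.8 and 17.0 CPM in KEP and 29.2, 25.5 and 22.8 CPM in WT libraries. Every blood library lay below every spleen library of its genotype. The lung means were 22.9 ± 2.60 CPM in KEP and 27.4 ± 6.21 CPM in WT, and the lymph node means 25.9 ± 3.11 CPM in KEP and 29.6 ± 2.44 CPM in WT. Tumor libraries had 64.4, 44.5 and 55.7 CPM and WT mammary gland libraries 48.4, 109, 60.8 and 75.5 CPM, the highest groups for this gene. The tumor libraries lay above all libraries of lung, lymph node, spleen and blood.

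Maf encodes c-MAF, which drives IL-10 in several T cell subsets. In blood it stood at 415.7, 383 and 420.2 CPM in KEP libraries, against 256, 183 and 230.4 CPM in WT libraries. In spleen the values were 274, 289 and 293 CPM in KEP and 213.7, 192 and 210.0 CPM in WT libraries. The genotypes did not overlap in either tissue, nor in lung, where KEP libraries had 289, 343 and 283 CPM and WT libraries 252.7, 215.7 and 248.7 CPM. In lymph node they overlapped, with 248, 190.6 and 277 CPM in KEP and 224.8, 218.8 and 174 CPM in WT libraries. KEP blood lay above every library of the group next in the order, KEP lung. Tumor libraries had 351, 306 and 140 CPM, while WT mammary gland libraries had 23.2, 83.9, 16.6 and 17.7 CPM and stood below all other groups.

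Rora encodes RORα, a nuclear receptor of type 2 and type 17 immune cells that also acts in the circadian clock. Its libraries sorted by tissue. Lung held 763, 816 and 647 CPM in KEP and 664, 604 and 645.6 CPM in WT libraries, and blood 394.7, 347 and 362 CPM in KEP and 290.8, 257 and 267 CPM in WT libraries. Spleen held 177, 192.7 and 181.5 CPM in KEP and 151.5, 157 and 185 CPM in WT libraries, and lymph node 97.4, 92.2 and 117.6 CPM in KEP and 139.9, 121.9 and 98.6 CPM in WT libraries. All lung libraries lay above all blood libraries, those above all spleen libraries, and those above all lymph node libraries, in both genotypes. The genotypes were apart in blood and overlapped in lung, spleen and lymph node. Tumor libraries had 700.2, 259 and 539 CPM and WT mammary gland libraries 109, 302, 96.0 and 129.7 CPM.

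Ahr encodes the aryl hydrocarbon receptor, and tumor held its highest level with 120, 75.1 and 104 CPM, above every library of the other groups. WT mammary gland libraries had 39.3, 40.9, 52.9 and 52.0 CPM. In lung it stood at 46.6, 43.5 and 49.95 CPM in KEP and at 39.0, 30.7 and 37.4 CPM in WT libraries. In blood the values were 31, 26.9 and 39.2 CPM in KEP and 19.6, 18.6 and 22.99 CPM in WT libraries. Spleen gave 25.2, 20.0 and 25.3 CPM in KEP and 15.97, 15.4 and 17.6 CPM in WT libraries. KEP libraries lay above WT libraries without overlap in lung, blood and spleen. In lymph node they overlapped, with 24.3, 15.2 and 28.1 CPM in KEP and 18.2, 15.8 and 15.9 CPM in WT libraries, KEP replicate 2 being the lowest.

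Tumor-bearing KEP mice were compared with WT littermates to ask how a mammary tumor changes Tregs away from it. Maf, Ahr and Rora rose in KEP blood, 3 of the 6 members, where 20.2% of all genes tested were called. The median log2 fold change of the 6 was 0.36 in blood, 0.20 in spleen, 0.25 in lung and -0.17 in lymph node, beside medians of all genes between -0.02 and 0.01. The libraries of Maf, Ahr and Rora did not overlap between genotypes in blood, 3 of 6 members beside 32.7% of all genes. Among the 3 members called Maf changed the most, 1.81-fold (log2 fold change 0.85, SE 0.13, adjusted p = 8.89e-05). Ahr rose 1.57-fold (0.65, SE 0.17, adjusted p = 0.00791) and Rora 1.35-fold (0.43, SE 0.11, adjusted p = 0.00953). Tbx21 had a log2 fold change of -1.66 (SE 0.60, adjusted p = 0.0605) and Bcl6 of -0.63 (SE 0.24, adjusted p = 0.0641), and neither was called; Gata3 had 0.28 (adjusted p = 0.229). With the title date as a random block in limma-voom both were called, Tbx21 at -1.90 (adjusted p = 0.046) and Bcl6 at -0.75 (adjusted p = 0.0485). Leaving out KEP blood replicate 2 gave -2.97 for Tbx21 (adjusted p = 0.00353) and -0.92 for Bcl6 (adjusted p = 0.0129), leaving out WT blood replicate 2 gave -2.06 for Tbx21 (adjusted p = 0.0222), and leaving out KEP blood replicate 3 ended the call of Ahr (0.51, adjusted p = 0.0627). DESeq2 called Tbx21 (adjusted p = 0.0276) and Bcl6 (0.0372) as well, a minimum count of 50 led to a call of Tbx21 (adjusted p = 0.0478), and in a fit of all 31 libraries Maf (adjusted p = 0.225) and Rora (0.464) were not called.

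In spleen 1 member, Maf, rose in KEP mice, by 1.39-fold (log2 fold change 0.48, SE 0.13, adjusted p = 0.0299), where 4.26% of genes were called. The call was lost when any of the 6 spleen libraries was left out (adjusted p = 0.0569 to 0.138, log2 fold change 0.43 to 0.50) and in the fit of all 31 libraries (adjusted p = 0.881). Ahr had 0.52 (SE 0.17, adjusted p = 0.0838, or 0.0401 with only the libraries compared and 0.00773 with no filter) and Tbx21 -1.15 (SE 0.55, adjusted p = 0.285). Maf, Ahr and Tbx21 did not overlap between the genotypes, 3 of 6 members beside 25.1% of all genes.

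In lung edgeR called none of the members, and neither did DESeq2 or limma-voom; 19.9% of genes were called, and Maf (0.32, SE 0.13, adjusted p = 0.0751) and Ahr (0.35, SE 0.16, adjusted p = 0.125) had an unadjusted p under 0.05. Tbx21 had -0.90 (SE 0.57, adjusted p = 0.287) in lung. Tbx21, Maf and Ahr did not overlap between the genotypes there, beside 34% of all genes, nor did Tbx21 and Bcl6 in lymph node, beside 23.9%. In lymph node edgeR, DESeq2 and limma-voom called none of the 6 where edgeR called 1.12% of genes, 143 in number, and 1 member, Ahr, had an unadjusted p under 0.05 (0.44, SE 0.17, adjusted p = 0.231). Leaving out KEP lymph node replicate 2 led to a call of Ahr (0.63, adjusted p = 0.0457), leaving out KEP lung replicate 2 to a call of Gata3 in lung (0.52, adjusted p = 0.02), and testing without a filter to a call of Maf in lung (0.33, adjusted p = 0.0163). The 143 genes called in lymph node became 300 with DESeq2, 296 with no filter and 2 in the fit of all 31 libraries, and 33, 89, 28 and 58 without KEP replicate 1, KEP replicate 3, WT replicate 1 and WT replicate 3. The 546 genes called in spleen became 306, 243, 273 and 267 without KEP replicate 1, KEP replicate 3, WT replicate 1 and WT replicate 2.

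Marker sums also moved with the genotype. The 8 genes of Treg identity, Foxp3 among them, summed to 4405 to 5506 CPM in KEP blood and 2699.6 to 3459 CPM in WT blood, and to 3107 to 4067 CPM in KEP spleen and 2272 to 2724 CPM in WT spleen. In lung they summed to 6621 to 6932 CPM in KEP and 4452 to 5339 CPM in WT libraries, and in lymph node to 3898 to 4296 CPM in KEP and 3034 to 3927 CPM in WT libraries, so that only lymph node overlapped. Of the 8, 5 rose and 1 fell in KEP blood, 3 rose in spleen and 4 rose in lung, with medians of 0.60, 0.39 and 0.48, beside 0.18 in lymph node. The 7 genes of conventional effector T cells, Il2 and Ifng among them, summed to 30.6 to 50.03 CPM in KEP blood and 59.9 to 89.5 CPM in WT blood, without overlap. They summed to 61.5 to 78.5 CPM in KEP spleen and 77.3 to 108.5 CPM in WT spleen, 117 to 200 CPM in KEP lung and 110.5 to 172 CPM in WT lung, and 59.9 to 79.3 CPM in KEP lymph node and 78.2 to 98.9 CPM in WT lymph node. Of these 7 genes 1 was at 0 in every library of each blood, spleen and lymph node group. B cell genes, 7 in number, summed to 815.7 to 994.7 CPM in KEP blood and 602.4 to 728.9 CPM in WT blood. In lung they summed to 514.9 to 543.5 CPM in KEP and 348.5 to 455.2 CPM in WT libraries. Lymph node gave 865.1 to 947.9 CPM in KEP and 618.4 to 716.8 CPM in WT libraries, and only spleen overlapped. Of the 7, 1 was called higher in blood, 2 in lung and 1 in lymph node, with medians of -0.41, -0.86 and 1.06. The 8 macrophage and monocyte genes had lower sums in KEP lung, at 38.45 to 79.59 CPM against 97.46 to 165.3 CPM in WT lung. Their sums were higher in KEP than in WT spleen (16.77 to 36.3 against 8.534 to 12.57 CPM) and lymph node (16.47 to 20.36 against 7.597 to 15.61 CPM). Of the 7 tested, 1 rose and 2 fell in lung, 1 rose in spleen and none was called in lymph node. The medians were -0.76 in lung, 0.84 in spleen and 0.66 in lymph node. The 5 mast cell and ILC2-related genes had higher sums in KEP lung, at 14.8 to 39.45 CPM against 7.947 to 11.51 CPM in WT lung. Of the 5, 2 were at 0 in every KEP lung library and 1 in every WT lung library. The part of all these marker genes in the genotype differences of the 6 members was not tested.

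Since the 4 tissues share title dates within a genotype, the counts of each date were also summed, giving 3 KEP and 3 WT values per gene. The CPM of these sums were scaled to total counts alone, whereas the fold changes from edgeR used TMM factors. Maf, Ahr and Rora rose in these sums as well, 3 of 6 members where 14.5% of genes were called. Maf had 298, 297 and 322 CPM in KEP sums and 239.7, 203.7 and 216 CPM in WT sums (log2 fold change 0.49, SE 0.07, adjusted p = 0.00353). Ahr had 31.4, 25.6 and 35.5 CPM in KEP sums, against 23.1, 19.6 and 22.8 CPM in WT sums (0.51, SE 0.12, adjusted p = 0.0236). Rora had 342, 343 and 319.5 CPM in KEP sums, against 302.5, 266 and 281.6 CPM in WT sums (0.25, SE 0.07, adjusted p = 0.0366). For all 3 genes the KEP sums lay above the WT sums, and the share of all genes separated in this way was not counted for the sums. The call of Maf held without any of the 6 sums, while Ahr was called in 1 and Rora in 2 of the 6 fits that left out a sum (adjusted p up to 0.0767 and 0.117). Tbx21 stood at 18.99, 43.8 and 19.9 CPM in KEP sums and at 58.6, 43.5 and 84.1 CPM in WT sums (-1.16, SE 0.45, adjusted p = 0.158), with KEP replicate 2 above WT replicate 2. Without KEP replicate 2 Tbx21 (-1.67, adjusted p = 0.0427), Bcl6 (-0.38, adjusted p = 0.0374) and Gata3 (0.31, adjusted p = 0.0248) were called too. With the title date as a random block in limma-voom, Bcl6 was called (-0.38, adjusted p = 0.0361) and Rora was not (0.13, adjusted p = 0.226). The mean of the 4 tissue contrasts in the fit of 24 libraries called Tbx21 (-1.01, adjusted p = 0.0142) and Bcl6 (-0.35, adjusted p = 0.0141) and not Rora (0.13, adjusted p = 0.0624).

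Whether the genotype difference itself differed among the 4 tissues was tested as an interaction. edgeR called none of the 6 members where 0.304% of genes were called. Rora (adjusted p = 0.168) and Maf (adjusted p = 0.209) had an unadjusted p under 0.05. DESeq2 called 1 member, Rora (adjusted p = 0.029), and limma-voom called none. edgeR without a filter called Rora (adjusted p = 0.00454) and Maf (0.01). Over all genes DESeq2 called 343 and edgeR without a filter 359, against 39 in the main test. The differences in blood, spleen, lung and lymph node of 0.43, 0.16, 0.18 and -0.23 for Rora, and of 0.85, 0.48, 0.32 and 0.21 for Maf, were thus not shown to differ by the main test.

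**Figure D3:**
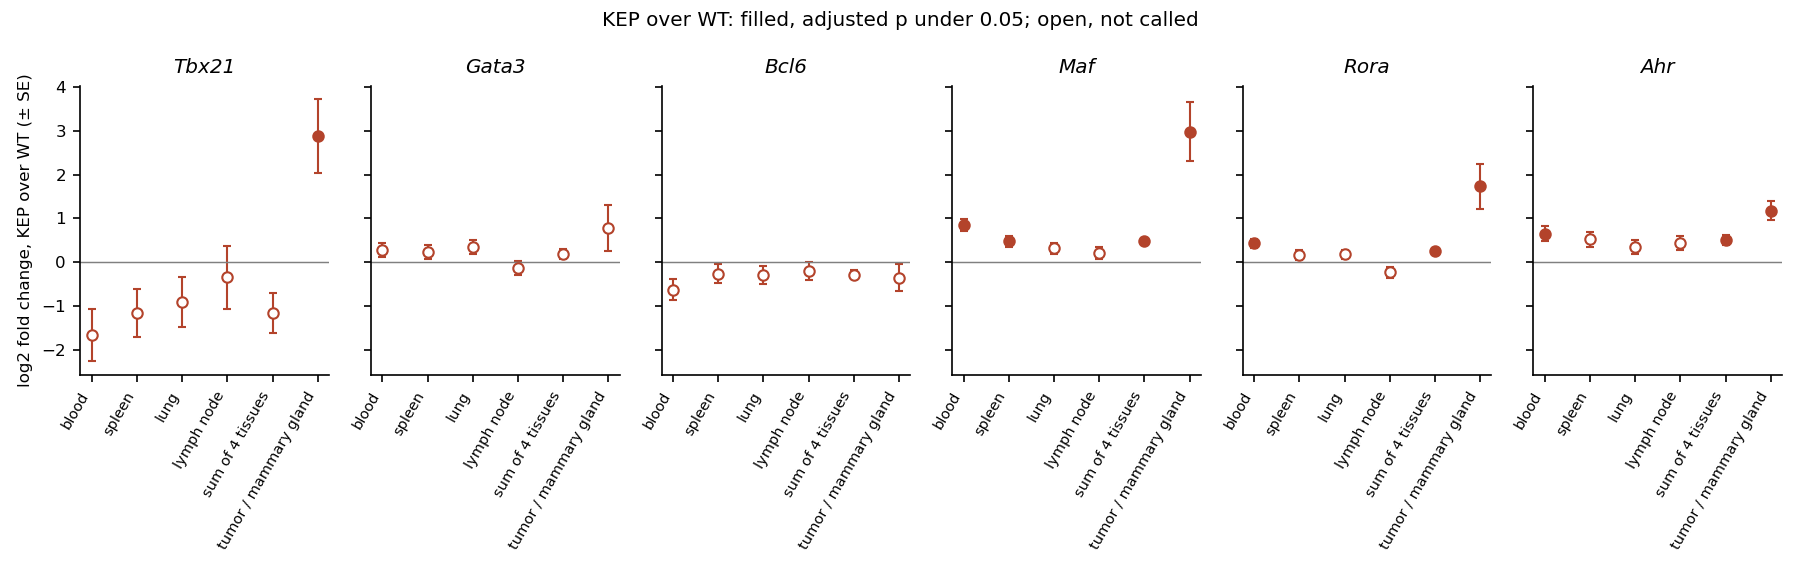
Log2 fold change (± SE) of KEP over WT for the 6 genes in 4 tissues, in counts summed over the 4 tissues, and for tumor over mammary gland; filled points are called at an adjusted p under 0.05. Maf and Ahr are above 0 and Tbx21 and Bcl6 below 0 in each of the 4 tissues; the tumor points depend on the scaling, and with pan-T scaling Tbx21, Gata3, Rora and Ahr turn below 0 against mammary gland.

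Tissues of the same genotype were compared with spleen to ask where each factor is expressed. Rora and Ahr rose in lung of both genotypes, 2 of 6 members in each, where 48.1% of genes were called in KEP and 44.9% in WT mice. Rora rose 4.01-fold in KEP lung over KEP spleen (log2 fold change 2.0, SE 0.12, adjusted p = 4.88e-13) and 3.93-fold in WT lung over WT spleen (1.97, SE 0.12, adjusted p = 6.85e-13). Ahr rose 1.98-fold in KEP lung (0.98, SE 0.16, adjusted p = 2.16e-05) and 2.22-fold in WT lung (1.15, SE 0.17, adjusted p = 5.02e-06). Tbx21 had -0.62 (SE 0.57, adjusted p = 0.39) in KEP lung and -0.87 (SE 0.55, adjusted p = 0.219) in WT lung. With only the libraries compared, Tbx21 (-0.87, adjusted p = 0.00479) and Maf (0.25, adjusted p = 0.0449) were called in WT lung. Gata3, Bcl6 and Maf stayed within 0.24 of 0 on the log2 scale in both and were not called in the fit of 24 libraries, and with upper-quartile factors, which moved the median of all genes by -0.12 in KEP and -0.11 in WT, Gata3, Bcl6 and Maf turned to negative values in KEP lung (-0.11, -0.04 and -0.03). Of all calls 49.3% in KEP and 51.4% in WT were higher in lung with TMM factors, against 36.4% and 39.7% with upper-quartile factors. The labels state an enzyme digestion for lung and tumor, and lung cannot be told apart from that step.

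In lymph node Tbx21 and Rora fell in both genotypes. Tbx21 fell to 7.85 ± 1.29 CPM in KEP lymph node, against 50.1 ± 22.4 CPM in KEP spleen (log2 fold change -2.66, SE 0.64, adjusted p = 0.0129), and to 9.91 ± 1.35 CPM in WT lymph node, against 111 ± 31.4 CPM in WT spleen (-3.48, SE 0.64, adjusted p = 0.00214). Rora fell by 0.84 (SE 0.12, adjusted p = 3.27e-05) in KEP and by 0.45 (SE 0.12, adjusted p = 0.0137) in WT mice. Gata3 fell in KEP lymph node (-0.65, SE 0.16, adjusted p = 0.0119), while WT lymph node had -0.27 (SE 0.16, adjusted p = 0.387), or an adjusted p of 0.0421 with the title date as a block. In all 3 of 6 members were called in KEP mice, where 11.1% of genes were, and 2 of 6 in WT mice, where 8.97% were. Leaving out KEP lymph node replicate 1 or 2 or KEP spleen replicate 2 ended the call of Tbx21 in KEP mice (adjusted p = 0.0547, 0.0551 and 0.0555), leaving out KEP lymph node replicate 2 or KEP spleen replicate 1 that of Gata3 (0.0592 and 0.0559), and leaving out WT lymph node replicate 3 or WT spleen replicate 3 that of Rora in WT mice (0.108 and 0.0784). In the fit of all 31 libraries Tbx21 was called in WT mice alone, with 0.0571 in KEP mice, and Rora (0.21 in KEP and 0.744 in WT mice) and Gata3 (0.45 in KEP mice) were not called.

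In blood Rora and Gata3 rose and Bcl6 fell in both genotypes. Rora rose 2.02-fold in KEP blood (log2 fold change 1.01, SE 0.11, adjusted p = 9.58e-07) and 1.67-fold in WT blood (0.74, SE 0.11, adjusted p = 4.29e-05). Bcl6 had -1.24 (SE 0.23, adjusted p = 0.000421) in KEP and -0.87 (SE 0.22, adjusted p = 0.00627) in WT mice. Gata3 had 0.49 (SE 0.16, adjusted p = 0.03) in KEP and 0.45 (SE 0.16, adjusted p = 0.0432) in WT mice. In KEP blood Maf (0.52, SE 0.12, adjusted p = 0.00364) and Ahr (0.47, SE 0.16, adjusted p = 0.0367) rose too, giving 5 of 6 members called where 24.6% of genes were; in WT blood 3 of 6 were called where 25.5% of genes were, with 0.14 for Maf (adjusted p = 0.446) and 0.34 for Ahr (adjusted p = 0.154). The call of Gata3 was lost when any of the 6 WT libraries was left out (adjusted p = 0.0674 to 0.139) and in KEP mice without KEP blood replicate 1, KEP spleen replicate 2 or KEP spleen replicate 3 (0.182, 0.139 and 0.0551), and that of Ahr in KEP mice without KEP blood replicate 1 or 3 or KEP spleen replicate 1 or 2 (0.0627, 0.218, 0.0536 and 0.165). Gata3 also lost its call with no filter (adjusted p = 0.0807 in KEP and 0.106 in WT mice), in KEP mice with only the libraries compared (0.0754) and in WT mice with upper-quartile factors (0.0612), which ended the call of Ahr in KEP mice as well (0.0535). With the title date as a block Tbx21 fell in blood of KEP mice (-1.62, adjusted p = 0.0105) and WT mice (-1.05, adjusted p = 0.0459), against -1.47 (adjusted p = 0.0829) and -0.96 (adjusted p = 0.219) without it, and Ahr rose in WT blood (0.34, adjusted p = 0.0324). Without KEP blood replicate 2 Tbx21 was called in KEP mice (-2.79, adjusted p = 0.00353), as it was by limma-voom (-1.88, adjusted p = 0.0473). In the fit of all 31 libraries Gata3 (0.426), Maf (0.485) and Ahr (0.132) were not called in KEP blood, nor Gata3 (0.473) and Rora (0.151) in WT blood.

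**Figure D4:**
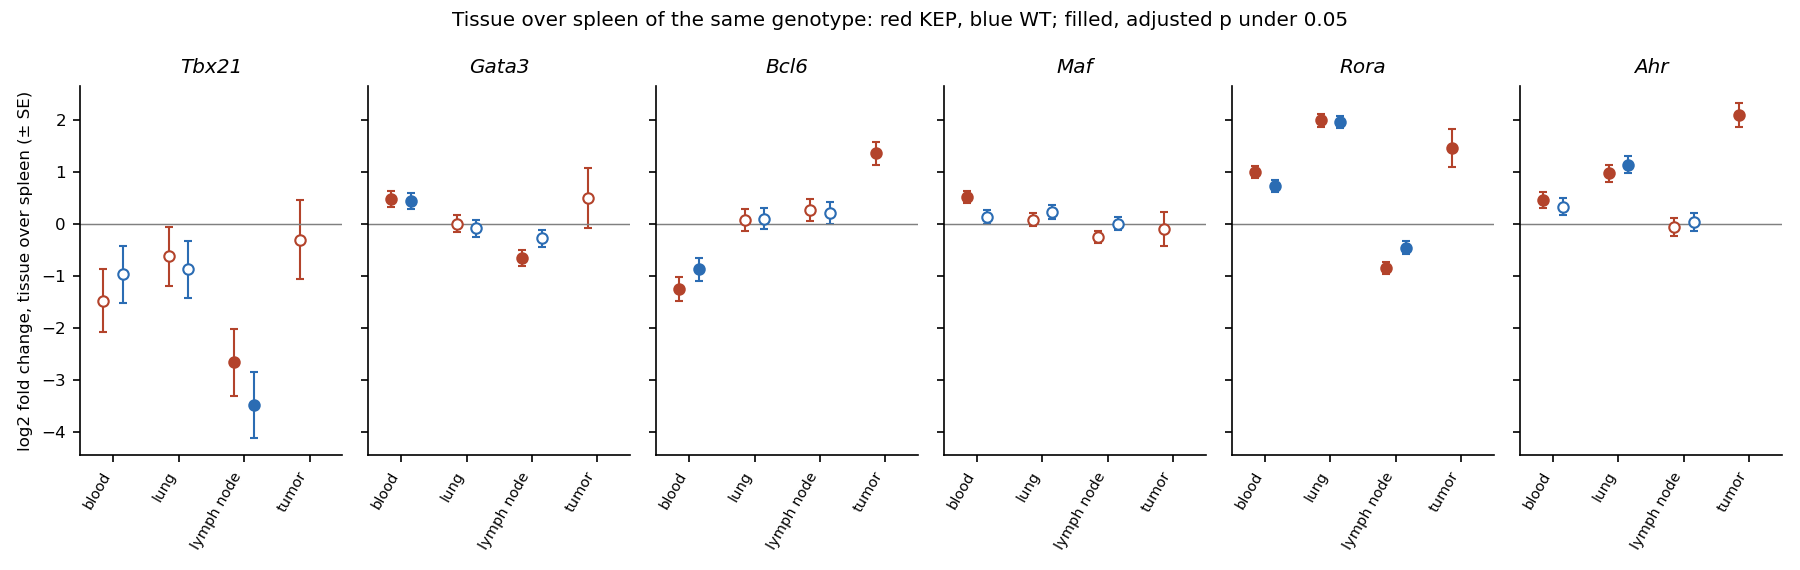
Log2 fold change (± SE) of blood, lung, lymph node and tumor over spleen of the same genotype for the 6 genes, KEP red and WT blue, filled where called at an adjusted p under 0.05. Rora is near 2 in lung of both genotypes (2.0 and 1.97) and below 0 in lymph node (-0.84 and -0.45), and Tbx21 is lowest in lymph node (-2.66 and -3.48); with pan-T scaling the tumor points of Tbx21 and Maf turn above 0.

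Tumor libraries were set against WT mammary gland libraries to place tumor Tregs beside those of the tissue of origin. Maf, Tbx21, Rora and Ahr were higher in tumor, 4 of 6 members where 25.2% of genes were called, but when libraries were scaled to the 10 pan-T genes Tbx21, Rora and Ahr turned below 0 and Maf was near 0. Maf had 266 ± 111 CPM in tumor, against 35.4 ± 32.5 CPM in mammary gland (log2 fold change 2.98, SE 0.68, adjusted p = 0.0214). Tbx21 had 40.5 ± 30.9 CPM in tumor, against 5.76 ± 4.00 CPM in mammary gland (2.88, SE 0.84, adjusted p = 0.0436), Rora 499 ± 223 CPM in tumor, against 159 ± 96.3 CPM in mammary gland (1.73, SE 0.51, adjusted p = 0.046), and Ahr 99.7 ± 22.8 CPM in tumor, against 46.3 ± 7.17 CPM in mammary gland (1.18, SE 0.22, adjusted p = 0.0115). Maf and Ahr did not overlap between the groups, 2 of 6 members beside 39.5% of all genes. Gata3 (0.78, SE 0.53, adjusted p = 0.305) and Bcl6 (-0.35, SE 0.30, adjusted p = 0.406) were not called. Under pan-T scaling the median of all genes moved by -3.42, and the values were 0.06 for Maf (adjusted p = 0.958), -0.33 for Tbx21 (0.791), -1.33 for Rora (0.232), -2.39 for Ahr (0.0412), -2.88 for Gata3 (0.0183) and -3.66 for Bcl6 (0.00742). Of the calls over all genes 44.5% were higher in tumor with TMM factors and 0.4% with pan-T scaling.

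As a share of the pan-T sum Maf stood at 5.72% to 8.65% in tumor and at 4.39% to 10.0% in mammary gland, beside 4.64% to 4.95% in KEP spleen. Tbx21 stood at 0.340% to 1.87% of the pan-T sum in tumor and at 0.588% to 1.97% in mammary gland. Bcl6 stood at 1.05% to 2.99% in tumor and at 5.70% to 36.7% in mammary gland, against 0.281% to 0.442% in KEP spleen. Markers of other cells moved with the tissue: the 9 luminal epithelial genes summed to 173 to 2023 CPM in tumor and 4821 to 6468 CPM in mammary gland, 6 stromal genes to 4208 to 9465 CPM in tumor and 995 to 3795 CPM in mammary gland. The 8 macrophage and monocyte genes summed to 740 to 5179 CPM in tumor and 66.3 to 146 CPM in mammary gland, and 5 fat cell genes to 10.9 to 39.9 CPM in tumor and 405 to 706 CPM in mammary gland. No gene of the epithelial, stromal or macrophage lists was at 0 in every library of either group, and 3 fat cell genes were at 0 in tumor. The 8 dendritic cell genes summed to 810 to 3575 CPM in tumor and 188 to 390 CPM in mammary gland. Their part in the 6 genes' values was not tested, and the collagenase digestion stated for tumors and not for mammary gland cannot be told apart from the tissue.

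Ahr was called in all 7 fits that left out a library (log2 fold change 0.99 to 1.37 without a tumor library), and Maf, Rora and Tbx21 in 2 of 7 each. Maf was called without KEP tumor replicate 3 (3.30, adjusted p = 0.0115) and without WT mammary gland replicate 2 (3.86, adjusted p = 0.00558), which was also the case for Tbx21 (3.40, adjusted p = 0.00609, and 3.42, adjusted p = 0.0356). Rora was called without KEP tumor replicate 2 (2.06, adjusted p = 0.0461) and without WT mammary gland replicate 2 (2.24, adjusted p = 0.0127). In the other fits the log2 fold changes were 2.70 to 2.90 for Maf, 2.38 to 2.92 for Tbx21 and 1.37 to 1.70 for Rora, with adjusted p up to 0.0662, 0.124 and 0.126. The calls over all genes moved too, with 1910 without KEP tumor replicate 2 and 1803, 1675 and 1677 without WT mammary gland replicates 1, 3 and 4, against 3667. Tbx21 was not called by limma-voom (2.62, adjusted p = 0.0892), without a filter (0.0575) or at a minimum count of 50 (0.0504), nor was Rora at that minimum (0.0524). Gata3 turned to -0.12 (adjusted p = 0.845) without KEP tumor replicate 1.

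**Figure D5:**
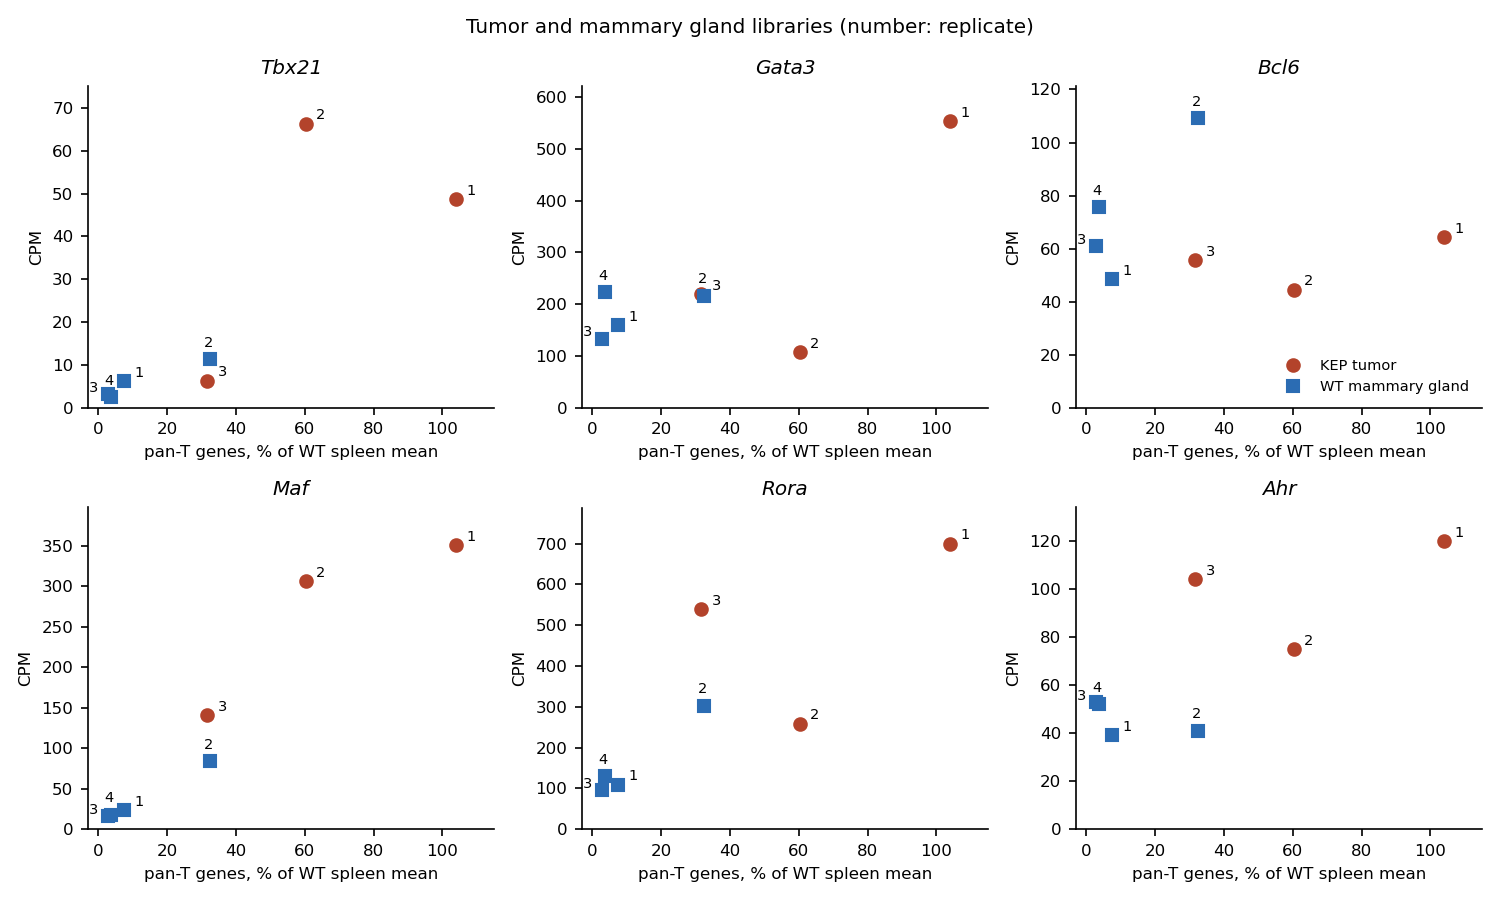
CPM of the 6 genes in each KEP tumor (red) and WT mammary gland (blue) library against its summed pan-T level as a percentage of the WT spleen mean, with replicate numbers. Maf is low where the pan-T level is low (16.6 to 23.2 CPM at 2.82% to 7.57%), while Bcl6, Gata3 and Ahr in mammary gland are not; the direction of tumor over mammary gland for Tbx21, Gata3, Rora and Ahr turns with pan-T scaling.

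Within KEP mice Ahr, Rora and Bcl6 rose in tumor over spleen, 3 of 6 members where 46.8% of genes were called. Ahr rose 4.31-fold (log2 fold change 2.11, SE 0.23, adjusted p = 0.00204), Rora 2.77-fold (1.47, SE 0.37, adjusted p = 0.0214) and Bcl6 2.58-fold (1.37, SE 0.22, adjusted p = 0.00516). Rora lost its call when any KEP spleen library was left out (adjusted p = 0.0776 to 0.081). Over lung, Bcl6 (1.27, SE 0.18, adjusted p = 0.00631) and Ahr (1.11, SE 0.19, adjusted p = 0.00977) rose, 2 of 6 members where 32.8% of genes were called. Ahr lost its call over lung without KEP lung replicate 2 (1.03, adjusted p = 0.0567). Rora had -0.56 (SE 0.36, adjusted p = 0.27) over lung, and 0.27 with pan-T scaling. Tbx21, Gata3 and Maf were called in neither comparison. Markers of other cells were higher in tumor here too. The 8 macrophage and monocyte genes summed to 740 to 5179 CPM in tumor, against 16.8 to 36.3 CPM in KEP spleen and 38.5 to 79.6 CPM in KEP lung, and all 8 were called. The 6 stromal genes summed to 4208 to 9465 CPM in tumor, against 3.63 to 4.53 CPM in KEP spleen, with 2 genes at 0, and 9.32 to 10.6 CPM in KEP lung, with 1 gene at 0. The 8 dendritic cell genes summed to 810 to 3575 CPM in tumor, against 87.9 to 232 CPM in KEP spleen and 129 to 210.5 CPM in KEP lung. Their part in the rise of Ahr, Bcl6 and Rora in tumor was not tested. The calls over all genes, 6048 over spleen and 4210 over lung, were 3349 to 3793 without a KEP spleen library and 1290 to 2019 without a KEP lung library. Upper-quartile factors moved the median of all genes by -0.11 over spleen. With pan-T scaling it moved by 0.93 over spleen and 0.85 over lung, and the values were 3.03 and 1.96 for Ahr and 2.28 and 2.11 for Bcl6, and 2.36 for Rora over spleen. Of all calls, 57.4% over spleen and 60.4% over lung were higher in tumor with TMM factors, against 95.7% and 96.4% with pan-T scaling.

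The genes around each factor were counted from lists of its lineage. The median log2 fold change of each list is set beside that of all genes, which lay between -0.03 and 0.02 in the 4 tissues. The list counts below are likewise to be read beside the share of all genes called. Between genotypes that share was 20.2% in blood, 4.26% in spleen, 19.9% in lung and 1.12% in lymph node. For lymph node over spleen it was 11.1% in KEP and 8.97% in WT mice. Of 15 Th1 genes, which act with T-bet, 1 rose and 8 fell in lymph node of each genotype, with a median of -0.79 in KEP and -0.69 in WT. Cxcr3, a chemokine receptor that T-bet induces, fell to 62.4 ± 10.98 CPM in WT lymph node, against 278 ± 39.7 CPM in WT spleen (log2 fold change -2.15, adjusted p = 0.000836). Stat4, the transducer of IL-12, fell in KEP lymph node to 41.1 ± 1.31 CPM, against 71.7 ± 7.87 CPM in KEP spleen (-0.79, adjusted p = 2.74e-05). Between genotypes 1 of the 15 Th1 genes rose in KEP blood, 1 rose and 1 fell in lung, and none was called in spleen or lymph node. The list medians were -0.18 in blood, -0.13 in spleen, -0.16 in lung and -0.05 in lymph node. The gene that fell in lung was Ifngr2, a chain of the interferon gamma receptor. It stood at 56.4 ± 5.18 CPM in KEP mice, against 76.8 ± 10.3 CPM in WT mice (-0.48, adjusted p = 0.0373).

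Of 13 Th2 genes, 12 were tested between genotypes in each tissue. In blood 2 rose and 2 fell in KEP mice, in spleen 3 and 2, in lung 3 and 3, and in lymph node 1 and 2, with medians between 0.08 and 0.17. Il1rl1, the IL-33 receptor ST2 and a target of GATA3, rose in all 4 tissues, as at 448 ± 102 CPM in KEP spleen, against 136 ± 2.32 CPM in WT spleen (log2 fold change 1.72, adjusted p = 8.68e-06), while Gata3 itself was not called in any. Gfi1, a repressor that promotes Th2 growth, fell in blood, spleen and lung, with 22.6 ± 5.26 CPM in KEP blood, against 37.2 ± 1.02 CPM in WT blood (-0.73, adjusted p = 0.00127). Ccr4, a chemokine receptor of Th2 cells and Tregs, rose in spleen (0.91, adjusted p = 0.000149) and lung (0.73, adjusted p = 0.000736).

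Of 16 Tfh genes, 4 rose and 3 fell in KEP blood, 1 rose in spleen, 3 rose and 3 fell in lung and 3 rose in lymph node, with medians between -0.04 and 0.17. Prdm1, which encodes Blimp-1, the antagonist of BCL6, rose in blood to 155 ± 14.2 CPM in KEP mice, against 73.5 ± 5.92 CPM in WT mice (log2 fold change 1.07, adjusted p = 4.02e-06), in lung (1.04, adjusted p = 9.75e-06) and in lymph node (0.55, adjusted p = 0.025). Icos, a costimulatory receptor of Tfh cells and Tregs, rose in all 4 tissues, with log2 fold changes of 0.64 in blood (adjusted p = 0.000562), 0.80 in spleen (0.000121), 0.65 in lung (0.00061) and 0.52 in lymph node (0.0255). Slamf6, a receptor by which T and B cells adhere, rose in lymph node (0.44, adjusted p = 0.0255). Cxcr5, the follicle-homing receptor, fell in KEP blood to 8.72 ± 2.42 CPM, against 32.4 ± 3.19 CPM in WT blood (-1.89, adjusted p = 2.24e-05). It also fell in blood against spleen of KEP mice (-2.08, adjusted p = 1.85e-06), as Bcl6 did. In tumor Cxcr5 fell to 4.07 ± 0.820 CPM, against 37.4 ± 4.85 CPM in KEP spleen (-3.18, adjusted p = 0.000983), whereas Bcl6 rose there.

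Of 13 Th17 and Maf genes, 6 rose in KEP blood, 4 in spleen, 5 in lung and 1 in lymph node, while 1 fell in lung and 2 in lymph node, with medians of 0.41, 0.30, 0.32 and 0.00. Socs3, an inhibitor of STAT3 signalling, rose in blood to 316 ± 65.2 CPM in KEP mice, against 172 ± 15.5 CPM in WT mice (log2 fold change 0.87, adjusted p = 0.00027), and in spleen (1.04, adjusted p = 7.98e-05) and lymph node (0.72, adjusted p = 0.0153). Irf4, a factor of effector Tregs, rose in blood (0.56, adjusted p = 0.0054), spleen (0.58, adjusted p = 0.0133) and lung (0.69, adjusted p = 0.00101). Il10, a target of c-MAF, was higher in lung than in spleen of KEP mice, at 42.4 ± 13.6 CPM in KEP lung, against 4.94 ± 2.78 CPM in KEP spleen (3.10, adjusted p = 3.18e-05), where Maf had 0.09 (adjusted p = 0.593).

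Of 12 AHR pathway genes, 9 were tested in the 4 tissues. Over spleen 3 rose and 1 fell in KEP lung, where 48.1% of all genes were called, with a list median of 0.34. In WT lung 4 rose and 1 fell, where 44.9% of all genes were called, with a list median of 0.32. In tumor over KEP spleen 10 were tested, and 3 rose and 1 fell, where 46.8% of all genes were called. Tiparp, a target of AHR that inactivates it, rose with Ahr in lung, at 111 ± 7.86 CPM in KEP lung, against 23.7 ± 0.822 CPM in KEP spleen (log2 fold change 2.21, adjusted p = 6.85e-13), and at 103 ± 13.8 CPM in WT lung, against 20.6 ± 3.92 CPM in WT spleen (2.34, adjusted p = 3.52e-13). In tumor it stood at 108 ± 35.9 CPM, 2.21 above KEP spleen on the log2 scale (adjusted p = 0.00231). Nqo1, an enzyme that AHR and NRF2 induce, rose in KEP spleen to 2.42 ± 0.832 CPM, against 0.500 ± 0.205 CPM in WT spleen (2.24, adjusted p = 0.000431), and in KEP lung (1.69, adjusted p = 0.00168). Between genotypes 1 gene rose and 1 fell in blood, 1 rose in spleen, 1 rose in lung and none changed in lymph node, with medians between 0.02 and 0.09.

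Of 15 clock genes, whose expression RORα and its rival REV-ERB shape, 8 rose in lung of each genotype over spleen, while 3 fell in KEP and 2 in WT lung, where 48.1% of all genes were called in KEP and 44.9% in WT mice. The medians of the list were 0.73 in KEP and 0.46 in WT lung. Nfil3, which encodes a clock-linked repressor, rose to 330.1 ± 35.1 CPM in KEP lung, against 18.5 ± 3.91 CPM in KEP spleen (log2 fold change 4.15, adjusted p = 1.54e-16). Per1 rose to 320.5 ± 29.7 CPM in KEP lung, against 65.7 ± 2.16 CPM in KEP spleen (2.28, adjusted p = 2.71e-10). Between genotypes 1 rose and 3 fell in blood, 1 rose and 1 fell in spleen, 1 rose and 3 fell in lung and 3 fell in lymph node, with medians between -0.30 and -0.04. Times of day of sampling are not given in the sources used here.

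Of 10 paralogs of the members (such as Eomes for Tbx21 and Ahrr for Ahr), 6 passed the filter in these tissues. Between genotypes Bcl6b was called in blood, at 0.195 ± 0.187 CPM in KEP libraries and at 0 in all 3 WT libraries, and none was called in spleen, lung or lymph node. Eomes fell to 0.188 ± 0.180 CPM in KEP blood, against 1.92 ± 1.85 CPM in KEP spleen (log2 fold change -3.29, adjusted p = 0.0051). Of 9 genes of tissue Tregs 6 rose in KEP blood, 4 in spleen, 7 in lung and 2 in lymph node, and none fell, with medians of 1.04, 0.74, 1.04 and 0.55. Several of these, such as Il1rl1 and Prdm1, are also on the lists above.

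Across 8 group means (lung, blood, spleen and lymph node of each genotype), the members were also related to each other and to all genes with a mean of at least 5 CPM (9324 genes, log2 scale with a pseudocount of 1). These are descriptions over 8 points that share title dates. Gata3 and Bcl6 ran opposite (Pearson r = -0.89, Spearman rho = -0.90), and Rora and Ahr ran together (r = 0.88, rho = 0.79). Maf went with Gata3 (r = 0.70) and Ahr (r = 0.67) and against Bcl6 (r = -0.71), and Tbx21 had no r beyond 0.34 with another member. The genes most like Rora were Stk24 (r = 0.996), Arntl, the clock activator BMAL1 (0.994), and Cep170 (0.993). The genes most like Tbx21 were Btbd11 (0.988), the T cell receptor gamma constant gene Tcrg-C4 (0.987) and F2r (0.982). Those most like Ahr were Tpm4, Dhrs1 and Arpc3 (0.995, 0.987 and 0.986), like Gata3 Trim46, Cenpb and Itgb7 (0.987, 0.987 and 0.980), like Bcl6 Cul7, Tesk2 and Scmh1 (0.993, 0.987 and 0.986), and like Maf Pon3, Nmur1 and Wls (0.963, 0.958 and 0.954).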

How the data were processed

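Reads of 65 bases from stranded mRNA libraries of sorted cells were aligned with TopHat2 2.1.0 to GRCm38 and counted with HTSeq, per the submitters' processing notes. The deposited values are raw counts per gene for 31 libraries (24594 genes, none normalized by the authors). Whether counting used the strand is not given in the sources used here. The members and lists were chosen with earlier results of these data known. Genes were annotated with GENCODE M21, which held 24270 of the IDs.

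The tests used edgeR 4.0.16 in R 4.3.3 (TMM factors, robust quasi-likelihood fit, genes kept at a minimum count of 10, Benjamini-Hochberg adjustment). Blood, spleen, lung and lymph node shared 1 fit of 24 libraries; each tumor comparison used the libraries compared. DESeq2 1.42.0, limma 3.58.1 (voom), other scalings, filters, designs and leaving out each library were tried, and the scripts were tested on simulated data. Depth ran from 8154765 to 15258958 counts, so precision is lowest for genes of few counts, such as Bcl6 (at least 57 in a library) and Tbx21 (at least 35).

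Title dates are shared between tissues of a genotype. Same-date libraries of the 4 tissues deviated together in KEP mice (18 of 18 pairs above a correlation of 0.1, median 0.265) and less so in WT mice (7 of 18, median 0.0897). The dates were therefore tried as a block, with the shared dates in the titles as the source of the pairing. No source used here says more on how replicates were drawn, so p-values measure the spread between these libraries.

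Named genes were the 6 members, up to 3 called genes with the smallest p in each list and comparison, and the 3 genes most like each member, leaving out predicted genes and receptor segments. Some genes of the lists are not reported here.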

Additional observations from a re-analysis of the deposited data

Results flagged for a closer look

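Maf and Rora in WT mammary gland each had 1 library far above the other 3 of its group. Replicate 2 held 83.9 CPM of Maf, against 16.6 to 23.2 CPM in the others, and 302 CPM of Rora, against 96.0 to 129.7 CPM. The gap to the nearest library was 0.902 of the group's range for Maf and 0.836 for Rora, both above Dixon's 95% critical value for a group of 4 libraries. The 6 genes were checked in this way, and chance flags about 1 in 20 groups. The same library had a pan-T sum of 32.6% of the WT spleen mean, against 2.82% to 7.57% in the other 3, and the part of that in the Maf and Rora values was not tested.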

How the results depend on the processing

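Leaving out 1 library at a time gave the following numbers of the 6 genes called: 2 to 5 in blood (KEP over WT), 0 in spleen, 0 to 1 in lung, 0 to 1 in lymph node, 1 to 5 in the sums, 1 to 4 in tumor over mammary gland, 1 to 2 in WT lymph node over spleen, 1 to 3 in KEP lymph node over spleen, 3 to 6 in KEP blood over spleen and 1 to 2 in tumor over lung. DESeq2 called 5 in blood and 1 in the difference between tissues, where its calls over all genes were 343 against 39. With no filter 2 were called in spleen, 1 in lung and 2 in the difference, where calls over all genes were 359 against 39. With only the libraries compared, 2 were called in spleen and 4 in WT lung over spleen. With a minimum count of 50, 2 were called in tumor over mammary gland. A fit of all 31 libraries called 1 in blood, 0 in spleen, 1 in WT lymph node, 1 in WT blood, 0 in KEP lymph node and 2 in KEP blood (each over spleen), and cut the calls over all genes to 657 in blood, 68 in spleen, 469 in lung and 2 in lymph node, against 2591, 546, 2550 and 143. It also called 297 against 1150 genes in WT lymph node, 1198 against 3272 in WT blood, 247 against 1420 in KEP lymph node and 1100 against 3150 in KEP blood, and raised the tumor calls to 8064 against 3667 (mammary gland), 9356 against 6048 (spleen) and 8171 against 4210 (lung). With the title date as a replicate block 5 members were called in blood and 5 in WT blood over spleen, and the calls over all genes were 629 against 39 for the difference between tissues, 1871 against 1150 in WT lymph node and 2434 against 1420 in KEP lymph node.

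Directions turned as follows. Pan-T scaling gave, over mammary gland, -0.33 for Tbx21, -2.88 for Gata3, -1.33 for Rora and -2.39 for Ahr, over spleen 0.24 for Tbx21 and 0.60 for Maf, and over lung 0.43 for Maf and 0.27 for Rora. In KEP lung over spleen Gata3 was -0.00 with the date block, -0.00 with limma-voom and -0.11 with upper-quartile factors, where Bcl6 was -0.04 and Maf -0.03. Tbx21 in tumor over lung was -0.08 with the block and -0.11 with limma-voom. Leaving out 1 library spread Gata3 over -0.12 to 1.19 against mammary gland, -0.36 to 0.92 against spleen and -0.39 to 0.83 against lung in tumor, Tbx21 over -0.82 to 0.22 and -0.28 to 0.82, and Maf over -0.35 to 0.22 and -0.47 to 0.11. Gata3 ran over -0.20 to 0.02 and Bcl6 over -0.08 to 0.24 in WT lung, Maf over -0.05 to 0.12 and Ahr over -0.03 to 0.09 in WT lymph node, Gata3 over -0.10 to 0.20, Maf over -0.00 to 0.15 and Bcl6 over -0.05 to 0.24 in KEP lung, and Ahr over -0.24 to 0.15 in KEP lymph node. The cause was not tested. Over single genes, 685 values under other settings kept direction and call, 15 turned, 20 gained and 24 lost a call; leaving out libraries gave 424, 22, 9 and 55.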
